A study of Mus musculus with 12 samples.

Results

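The circadian clock genes described here are Ciart, Per1, Per2, Per3, Cry1, Cry2, Nr1d1, Nr1d2, Dbp and Arntl, 10 of the 24421 genes in a table of read counts from cultured mouse fibroblasts. Ciart was chosen by its measured fall with etoposide in Null MEFs, among the largest of any gene, and the other 9 are known core genes of the same clock that were taken with it. Earlier results of these data were known when the 10 genes were chosen. MEFs are mouse embryonic fibroblasts, and the 12 RNA libraries came from MEFs labelled Null and from TFEB/TFE3 DKO MEFs. In the DKO MEFs CRISPR-Cas9 was used to knock out the transcription factors TFEB and TFE3. The study compared DKO with wild-type MEFs, so Null is taken here as its wild-type line. Its methods name ATCC as the source of wild-type MEFs but also list WT MEFs among the cells made with CRISPR-Cas9. Both lines were grown in high-glucose DMEM with serum and were either left as controls or given 100 µM etoposide for 8 hours, with 3 libraries for each of the 4 groups. Etoposide traps topoisomerase II on DNA and leaves double-strand breaks. The labels call the controls untreated, whereas the study's methods say that control MEFs for RNA sequencing received DMSO. Each genotype is 1 line, so genotype cannot be told apart from other differences between these lines. Neither a step to synchronise the cells nor the hour of harvest is given in the sources used here. The study asked how TFEB and TFE3 shape the transcriptional response to DNA damage, and the 4 groups allow the same question to be put to the clock genes.

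The mammalian clock is a feedback loop that runs within single cells, fibroblasts in culture included. BMAL1, the product of Arntl, pairs with CLOCK and binds E-box motifs to drive Per, Cry, Nr1d1, Nr1d2, Dbp and Ciart. PER and CRY proteins return to the nucleus and repress that pair, and CIART (also called CHRONO) is a further repressor of it. REV-ERBα and REV-ERBβ, from Nr1d1 and Nr1d2, repress Arntl through RORE motifs, while DBP activates genes through D-box motifs. TFEB and TFE3 belong to another family of helix-loop-helix factors and are also known to bind the E-box letters CACGTG.

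Counts on genes ranged from 66956083 to 83970210 in Null controls (median 67654759), from 66749645 to 104120871 in DKO controls (median 74826945), from 63286195 to 76125320 in Null MEFs after etoposide (median 75454495) and from 45577023 to 94388705 in DKO MEFs after etoposide (median 68441372). All 10 clock genes passed the filter on low counts, and the lowest count of any of them in a library was 168. Levels are given as CPM, reads of a gene scaled by TMM to a common library size, and differences as log2 fold changes with their standard error (SE). A difference was called at an adjusted p under 0.05 in the quasi-likelihood test of edgeR, with p-values adjusted by the method of Benjamini and Hochberg over the 15220 genes tested. Nothing says that the replicates came from separate cultures, so these p-values measure only the spread between these libraries. They are bulk samples, in which fewer cells of a type and less RNA per cell cannot be told apart.

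Tfeb, a targeted gene, followed the labels. Its level was 38.9, 39.2 and 42.1 CPM in Null controls and 4.60, 6.09 and 4.68 CPM in DKO controls, a log2 difference of -2.94 (SE 0.09, edgeR adjusted p = 1.05e-14). After etoposide Tfeb stood at 11.4, 10.2 and 10.4 CPM in Null MEFs and 1.92, 1.61 and 2.20 CPM in DKO MEFs. Tfe3 differed by less, with 113 ± 2.83 CPM in Null controls and 92.7 ± 1.61 CPM in DKO controls (SD, n = 3), and 68.7 ± 0.778 CPM and 68.5 ± 4.37 CPM after etoposide. Which exon of Tfe3 was edited is not given in the sources used here, so its count checks nothing about the label. Cdkn1a and Mdm2, known targets of p53, rose with etoposide in both genotypes, Cdkn1a from 65.7 ± 5.72 to 506 ± 7.31 CPM in Null MEFs and from 39.7 ± 1.14 to 241 ± 13.7 CPM in DKO MEFs. Mdm2 rose by a log2 fold change of 3.92 in Null MEFs (edgeR adjusted p = 9.89e-21) and 2.44 in DKO MEFs (edgeR adjusted p = 1.84e-18).

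The fibroblast label was checked against markers. All 10 fibroblast markers averaged at least 1 CPM, led by Vim, and their summed level was 7654 CPM in Null controls, 13240 CPM in DKO controls, 4092 CPM in Null MEFs after etoposide and 5770 CPM in DKO MEFs after etoposide. Macrophage markers summed to 2.00, 2.12, 13.9 and 3.92 CPM in those groups, mostly Cd68 in each library, while Ptprc, a marker of leukocytes in general, and Adgre1, a macrophage marker, averaged 0.166 and 0.0146 CPM. Muscle markers summed to 3.14, 4.12, 37.4 and 4.63 CPM. Their most abundant gene over the 12 libraries was Des, at 33.2, 37.5 and 38.2 CPM in Null MEFs after etoposide but 0.316, 0.489 and 0.352 CPM in DKO controls, with Myod1 at 0.0194 CPM and Myog at 0.0618 CPM. Epithelial markers, led over the 12 libraries by Krt8, summed to 2.65, 5.45, 2.72 and 2.29 CPM, endothelial markers, led by Tek, to 0.130, 0.133, 2.63 and 1.12 CPM, and neuronal markers, led by Syt1, to 0.548, 0.00725, 1.48 and 0.511 CPM. These sums moved with genotype or treatment, and their part in the clock gene results was not tested.

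Ciart lies on chromosome 3 from 95878503 to 95882251 on the minus strand (GRCm38), with 6 exon blocks of 2261 bases in all. Promoter windows from RefSeq (GRCm38.p6) were found for 9 of the 10 clock genes, all but Per2, each running from 250 bases before the start of a transcript to 50 bases after it. Per1 and Arntl had 2 windows each, which made 11. They were searched on both strands for the E-box CACGTG, the E-prime-box CACGTT, the D-box TTATGTAA or TTACGTAA, the RORE core TAGGTCA and the CRE TGACGTCA. The windows of Ciart, Cry1, Per1 and Per3 are shown because they hold every E-box and D-box match found among the 10 genes, with 3 E-boxes in that of Ciart. Only the 250 bases before the start are printed, 5′ to 3′ on the strand of the gene, with matches in capitals. They lie at chr3:95882229-95882478 for Ciart, chr10:85185055-85185304 for Cry1 and chr4:151044666-151044915 for Per3, all on the minus strand, and at chr11:69098699-69098948 on the plus strand for Per1.
Ciart: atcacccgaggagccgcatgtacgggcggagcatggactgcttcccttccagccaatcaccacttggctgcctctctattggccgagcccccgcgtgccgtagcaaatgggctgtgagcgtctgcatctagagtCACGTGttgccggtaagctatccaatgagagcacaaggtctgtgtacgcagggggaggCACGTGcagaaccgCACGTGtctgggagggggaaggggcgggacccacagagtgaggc
Cry1: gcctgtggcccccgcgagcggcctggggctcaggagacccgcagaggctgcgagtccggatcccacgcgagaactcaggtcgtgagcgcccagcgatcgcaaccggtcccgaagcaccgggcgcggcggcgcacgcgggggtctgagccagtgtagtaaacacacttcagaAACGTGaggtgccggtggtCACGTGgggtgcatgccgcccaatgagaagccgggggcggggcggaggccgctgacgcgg
Per1: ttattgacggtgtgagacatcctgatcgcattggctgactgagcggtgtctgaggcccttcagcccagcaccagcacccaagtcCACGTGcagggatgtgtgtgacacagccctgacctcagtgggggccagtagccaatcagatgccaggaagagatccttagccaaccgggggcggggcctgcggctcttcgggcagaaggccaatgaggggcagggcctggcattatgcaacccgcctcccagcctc
Per3: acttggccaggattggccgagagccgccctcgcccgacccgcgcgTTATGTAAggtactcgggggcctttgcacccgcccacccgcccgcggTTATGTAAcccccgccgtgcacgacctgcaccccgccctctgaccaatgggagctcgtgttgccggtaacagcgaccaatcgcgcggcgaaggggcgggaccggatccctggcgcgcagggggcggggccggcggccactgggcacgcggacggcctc

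The Ciart window held 3 E-boxes, which begin 116, 58 and 44 bases before the start. Only 29 of the 32851 windows in the table held at least 3 (0.0883%), whereas 2349 held any (7.15%). Cry1 had 1 E-box at 60 bases and, as AACGTG on its own strand, 1 E-prime-box at 79 bases, and Per1 had 1 E-box at 166 bases. An E-prime-box was also found for Cry2, at 166 bases, and for Nr1d1, at 28 bases, and 1539 windows of the table held this motif (4.68%). Per3 carried 2 copies of the D-box TTATGTAA, at 205 and 158 bases, a motif of 347 windows (1.06%). The RORE core was in the second Arntl window alone, from base 31 after the start, and in 856 windows of the table (2.61%). No window of a clock gene held the CRE, which 588 windows did (1.79%), and none of the 5 motifs was in the windows of Nr1d2 or Dbp. No match overlapped another. A match describes these letters and does not show that a factor binds there.

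Per kilobase of exon, the most abundant clock gene in Null controls was Nr1d2 at 16.6 CPM per kb, followed by Ciart at 15.2 and Cry1 at 12.6. Per3 at 1.12 and Dbp at 1.16 CPM per kb were the least abundant. Nr1d2 kept the highest level per kb in all 4 groups. Ciart went from rank 2 of 10 in Null controls to rank 9 after etoposide (1.20 CPM per kb), and from rank 3 to rank 5 in DKO MEFs (11.3 and 2.73 CPM per kb).

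Ciart was high in both control groups and low in both etoposide groups, and it was lower in DKO than in Null controls but higher in DKO than in Null MEFs after etoposide. In Null controls its level was 34.6, 32.7 and 35.6 CPM, and after etoposide it was 3.06, 2.45 and 2.65 CPM. The log2 fold change of -3.65 (SE 0.09), a 12.6-fold lower level, was the 4th lowest of the 15220 genes, and as the value that chose the gene it is given without a test. The value that chose Ciart did not use DKO MEFs, though earlier results of these data were known when the genes were chosen. In DKO MEFs Ciart was 23.6, 27.4 and 25.8 CPM in controls and 6.76, 5.72 and 6.04 CPM after etoposide. That is a 4.19-fold fall (log2 fold change -2.07, SE 0.08, edgeR adjusted p = 1.46e-13) seen in every library. Its 4 groups did not overlap, in the order Null etoposide, DKO etoposide, DKO control and Null control from lowest to highest.

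**Figure D1:**
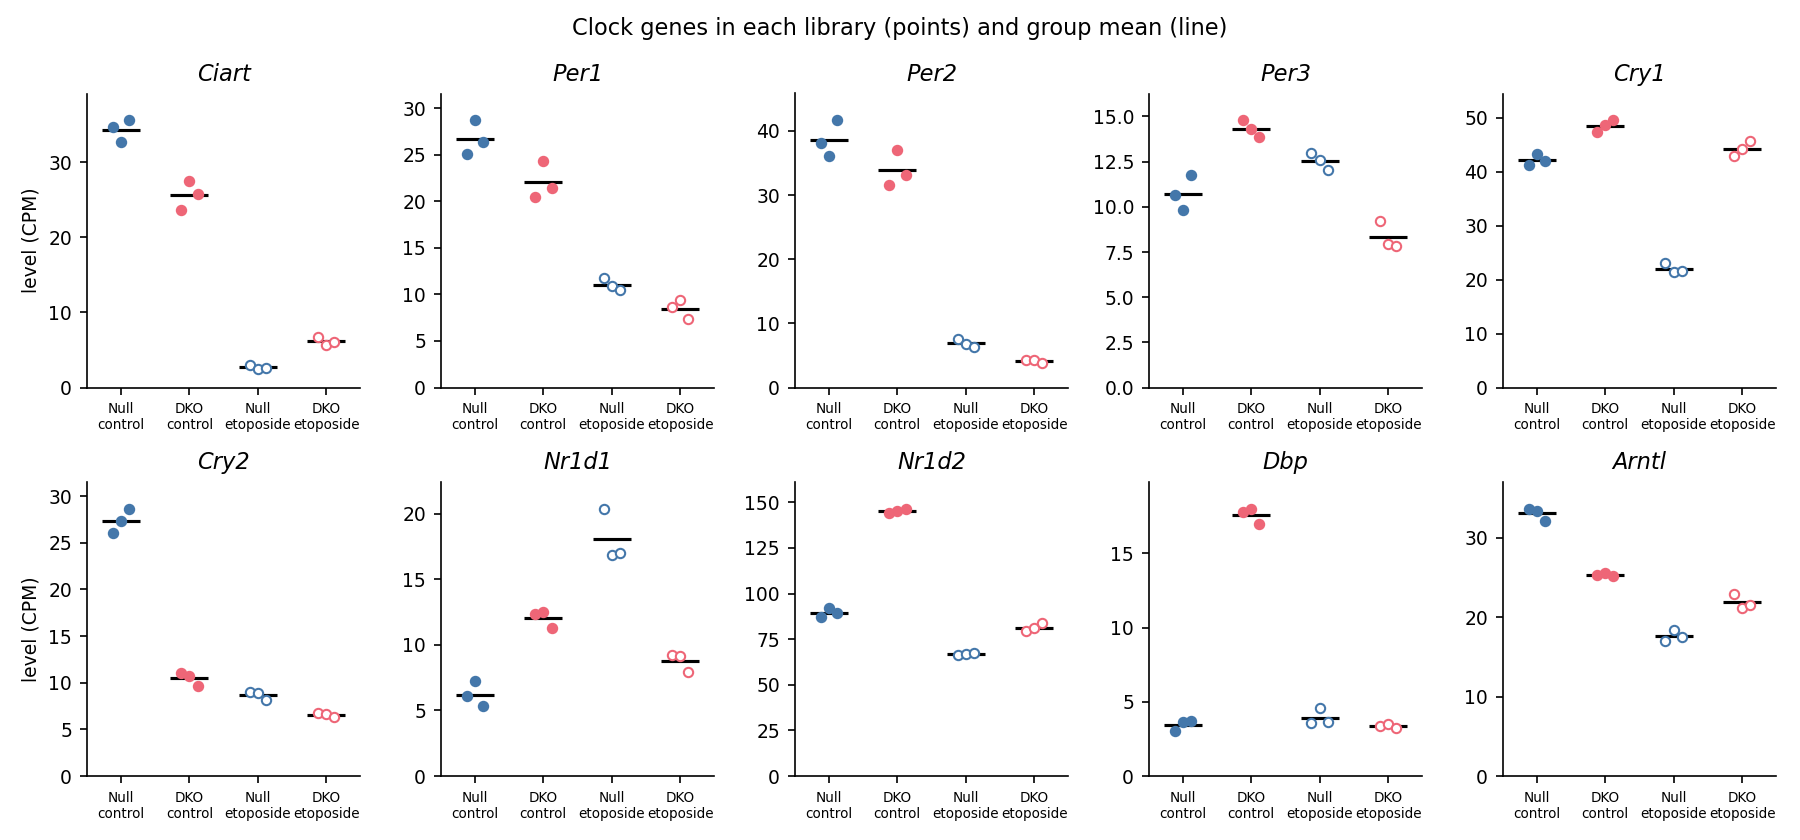
Level of each clock gene in each of the 12 libraries, in CPM on an axis of its own from 0 for each gene, with points for libraries and a line at the group mean (n = 3). Ciart spans 2.45 to 35.6 CPM with no overlap between its groups, whereas Dbp lies between 3.04 and 4.59 CPM in all groups but the DKO controls, at 17.0 to 18.0 CPM.

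The Per genes, whose proteins repress BMAL1 and CLOCK, did not all lie on the same side of their controls in Null MEFs. Per2 was 38.2, 36.0 and 41.7 CPM in Null controls and 7.62, 6.82 and 6.29 CPM after etoposide, a log2 fold change of -2.48 (SE 0.08). Per1 was 25.1, 28.7 and 26.3 CPM in controls and 11.8, 10.9 and 10.4 CPM after etoposide, a log2 fold change of -1.27 (SE 0.08). Per3, which is thought to matter less for rhythm than Per1 and Per2, was 10.7 ± 0.977 and 12.6 ± 0.479 CPM (SD, n = 3), a log2 fold change of 0.23 (SE 0.08). Thus Per1 and Per2 lay lower after etoposide in every library, and Per3 slightly higher in every library. The Cry genes encode the partners of PER. Cry2 was 27.4 ± 1.29 and 8.67 ± 0.489 CPM (log2 fold change -1.65, SE 0.07), and Cry1 was 42.2 ± 1.08 and 22.0 ± 0.868 CPM (log2 fold change -0.94, SE 0.04).

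Nr1d1 stood opposite to Ciart in Null MEFs. It was 6.11, 7.21 and 5.33 CPM in controls and 20.4, 16.8 and 17.0 CPM after etoposide, a log2 fold change of 1.54 (SE 0.10). Its paralog Nr1d2 was 89.6 ± 2.58 and 67.0 ± 0.463 CPM (SD, n = 3; log2 fold change -0.42, SE 0.03), so that these related repressors lay on opposite sides of their controls. Arntl, the gene they repress, was 33.1 ± 0.833 and 17.7 ± 0.701 CPM (log2 fold change -0.90, SE 0.05). Dbp, an output gene that encodes a D-box activator, was 3.04, 3.66 and 3.72 CPM in controls and 3.60, 4.59 and 3.65 CPM after etoposide, and its groups overlapped (log2 fold change 0.20, SE 0.12). In all, 3 of the 10 genes lay above their controls and 7 lower, at a median log2 fold change of -0.92 beside 0.07 over all genes, and the libraries of 9 did not overlap. Since this contrast was used to choose Ciart, nothing is read from these counts. Over all genes 79.4% were called in it, 42.3% higher and 37.2% lower, and 80.2% did not overlap.

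In DKO MEFs all 10 clock genes fell with etoposide, where 75.1% of all genes were called, 43.7% higher and 31.5% lower. Their median log2 fold change was -0.82, beside 0.14 over all genes. Per2 had the largest fall, 8.31-fold, from 31.6, 37.0 and 33.2 CPM to 4.37, 4.22 and 3.81 CPM (log2 fold change -3.06, SE 0.09, edgeR adjusted p = 3.59e-15). Dbp followed at 5.20-fold, from 17.8, 18.0 and 17.0 CPM to 3.40, 3.54 and 3.27 CPM (log2 fold change -2.38, SE 0.10, edgeR adjusted p = 2.9e-13). Per2 thus fell in DKO MEFs to the lowest level of its 4 groups, and Dbp to a level that overlapped that of Null controls. Per1 fell by 1.40 on the log2 scale (SE 0.09, edgeR adjusted p = 2.13e-10), Nr1d2 by 0.83 (SE 0.03, edgeR adjusted p = 2.81e-13) and Per3 by 0.80 (SE 0.08, edgeR adjusted p = 6.84e-08). The changes of Cry2 (-0.69, SE 0.08, edgeR adjusted p = 2.73e-07) and Nr1d1 (-0.48, SE 0.10, edgeR adjusted p = 0.000461) were smaller. Arntl (-0.22, SE 0.05, edgeR adjusted p = 0.000683) and Cry1 (-0.13, SE 0.04, edgeR adjusted p = 0.0109) moved least, and the calls of these genes and of Nr1d1 changed with the scaling. Cry1 was also not called under the stricter filter (-0.09, edgeR adjusted p = 0.0518). With library size alone the median of all genes moved up by 0.27 and the split of all genes from 6645 higher and 4790 lower to 9316 and 3004, and 1 clock gene was then higher and 7 lower. Cry1 was then above its controls (log2 fold change 0.14, edgeR adjusted p = 0.0047), and Arntl (0.05, edgeR adjusted p = 0.325) and Nr1d1 (-0.21, edgeR adjusted p = 0.0733) were not called.

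**Figure D2:**
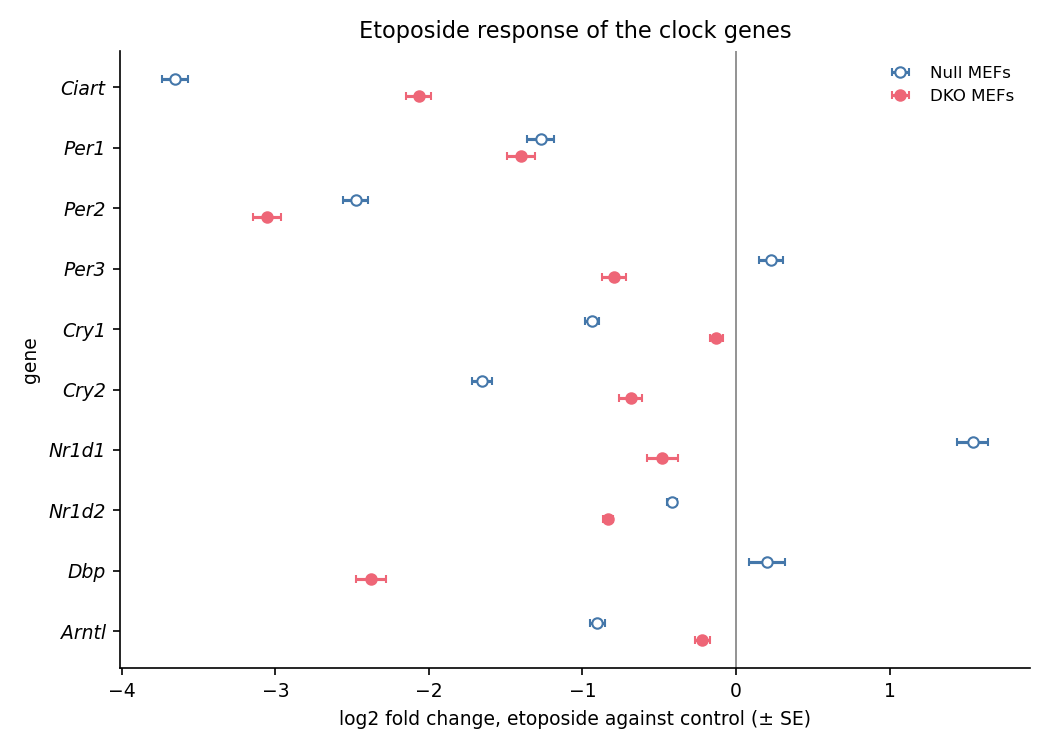
Log2 fold change with etoposide for each clock gene, in Null MEFs (open points) and DKO MEFs (filled points), with bars of 1 standard error from the fit to 12 libraries. Ciart lies at -3.65 in Null and -2.07 in DKO MEFs, and Nr1d1, Dbp and Per3 lie right of 0 in Null MEFs and left of 0 in DKO MEFs.

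Without etoposide, all 9 clock genes other than Ciart differed between DKO and Null MEFs, 5 higher and 4 lower, where 66.7% of all genes were called, 33.3% higher and 33.4% lower. Their median log2 difference was 0.20, beside -0.02 over all genes. The largest was that of Dbp, 5.11-fold higher in DKO controls with no overlap between libraries (log2 difference 2.35, SE 0.10, edgeR adjusted p = 4.44e-13). Nr1d1 (0.96, SE 0.11, edgeR adjusted p = 3.85e-07), Nr1d2 (0.70, SE 0.03, edgeR adjusted p = 4.09e-12), Per3 (0.42, SE 0.08, edgeR adjusted p = 0.00011) and Cry1 (0.20, SE 0.04, edgeR adjusted p = 0.000435) were also higher. The REV-ERB genes and Dbp thus lay higher in DKO controls, while Arntl was lower (-0.38, SE 0.05, edgeR adjusted p = 1.36e-06). Cry2 was 27.4 ± 1.29 CPM in Null controls and 10.5 ± 0.709 CPM in DKO controls (SD, n = 3) with no overlap, the largest deficit of the 10 (log2 difference -1.38, SE 0.07, edgeR adjusted p = 3.1e-12). Per1 was lower by a smaller amount (-0.27, SE 0.08, edgeR adjusted p = 0.00677). Per2 was called (-0.18, SE 0.07, edgeR adjusted p = 0.027) although its libraries overlapped, and it was not called with limma-trend or when Null control replicate 3, DKO control replicate 1 or DKO control replicate 3 was left out. Its log2 difference was then -0.19 to -0.13 (limma or edgeR adjusted p from 0.0555 to 0.146). The log2 difference of Ciart was -0.42 (SE 0.07), given without a test because this comparison shares the Null controls with the one that chose the gene. With library size alone the median of all genes moved by -0.12, the split of all genes went from 5066 higher and 5091 lower to 3977 and 6393, and Cry1 was not called (0.08, edgeR adjusted p = 0.0965).

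Exons of Dbp share 539 bases (18.0% of its exon length) with Sphk2 on the opposite strand, and those of Nr1d1 share 263 bases (8.55%) with Thra. The libraries were made with a stranded kit, but whether the counting used strand is not given in the sources used here. Whether reads in the shared bases were counted for either gene or set aside as ambiguous (0.428 to 0.513% of all reads) is therefore not known. Sphk2 was 23.0, 32.9, 23.9 and 32.0 CPM in Null controls, DKO controls, Null etoposide and DKO etoposide, higher in DKO controls by a log2 difference of 0.52 (edgeR adjusted p = 1.47e-07), as Dbp was. Among etoposide libraries it was higher in DKO than in Null MEFs by 0.42 (edgeR adjusted p = 1.49e-06), a comparison in which Dbp was not called. Sphk2 was not called with etoposide in Null MEFs (0.05, edgeR adjusted p = 0.379) or in DKO MEFs (-0.04, edgeR adjusted p = 0.461), where Dbp fell. The difference of its responses was -0.10 (edgeR adjusted p = 0.305), beside -2.58 for Dbp. Thra was 32.1, 29.8, 32.6 and 18.4 CPM in the same groups. It was not called with etoposide in Null MEFs (log2 fold change 0.02, edgeR adjusted p = 0.741), where Nr1d1 was higher, nor in DKO against Null controls (-0.11, edgeR adjusted p = 0.0971). In DKO MEFs Thra fell with etoposide by 0.70 on the log2 scale (edgeR adjusted p = 6.61e-09), beside -0.48 for Nr1d1. After etoposide it was lower in DKO than in Null MEFs (-0.83, edgeR adjusted p = 5.18e-10), beside -1.06 for Nr1d1, and its response was lower in DKO MEFs (difference -0.72, edgeR adjusted p = 6.46e-07), beside -2.02 for Nr1d1. The part of shared reads in the values of Dbp and Nr1d1 was not tested. Cry2 shares 295 bases (4.67%) and Arntl 33 bases (0.439%) with noncoding genes on the opposite strand, and the other 6 clock genes share none with another gene. Among the further genes named in the text, Cdkn1a (7.68%), Csnk1e (4.05%), Bhlhe40 (2.51%) and Tef (2.45%) share a smaller part of their exons with genes on the opposite strand, as do Rora, Ncor1 and Dusp1 at under 1%.

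After etoposide, 3 of the 9 clock genes other than Ciart were higher in DKO than in Null MEFs, 5 were lower and 1 was not called, where 74% of all genes were called, 37.5% higher and 36.6% lower. The median log2 difference of the 9 was -0.40, beside -0.004 over all genes. With RLE scaling 3 clock genes were higher and 6 lower. The split of all genes then went from 5701 higher and 5569 lower to 5072 and 6096, at a median of -0.06. Cry1, at 23.0, 21.5 and 21.6 CPM in Null MEFs and 42.9, 44.3 and 45.7 CPM in DKO MEFs, was higher by 1.01 (SE 0.04, edgeR adjusted p = 1.1e-12). Ciart lay higher in DKO MEFs by 1.17 (SE 0.11), given without a test because its level in these Null libraries helped to choose it. Arntl (0.30, SE 0.05, edgeR adjusted p = 3.29e-05) and Nr1d2 (0.28, SE 0.03, edgeR adjusted p = 7.68e-07) were higher too. Nr1d1, higher in DKO controls, was lower in DKO MEFs here, at 9.21, 9.16 and 7.89 CPM against 20.4, 16.8 and 17.0 CPM (-1.06, SE 0.10, edgeR adjusted p = 2.46e-08). All 3 Per genes were lower in DKO MEFs, Per2 by the most (-0.76, SE 0.10, edgeR adjusted p = 3.68e-06), then Per3 (-0.61, SE 0.08, edgeR adjusted p = 1.93e-06) and Per1 (-0.40, SE 0.10, edgeR adjusted p = 0.00119). Cry2 was lower as in controls (-0.41, SE 0.08, edgeR adjusted p = 0.000117). Dbp was below the Null libraries in all 3 DKO libraries but was not called (-0.22, SE 0.12, edgeR adjusted p = 0.093), though it was called with DESeq2, RLE scaling, the stricter filter and without Null etoposide replicate 1 (-0.30 to -0.28, DESeq2 or edgeR adjusted p from 0.0293 to 0.0438).

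**Figure D3:**
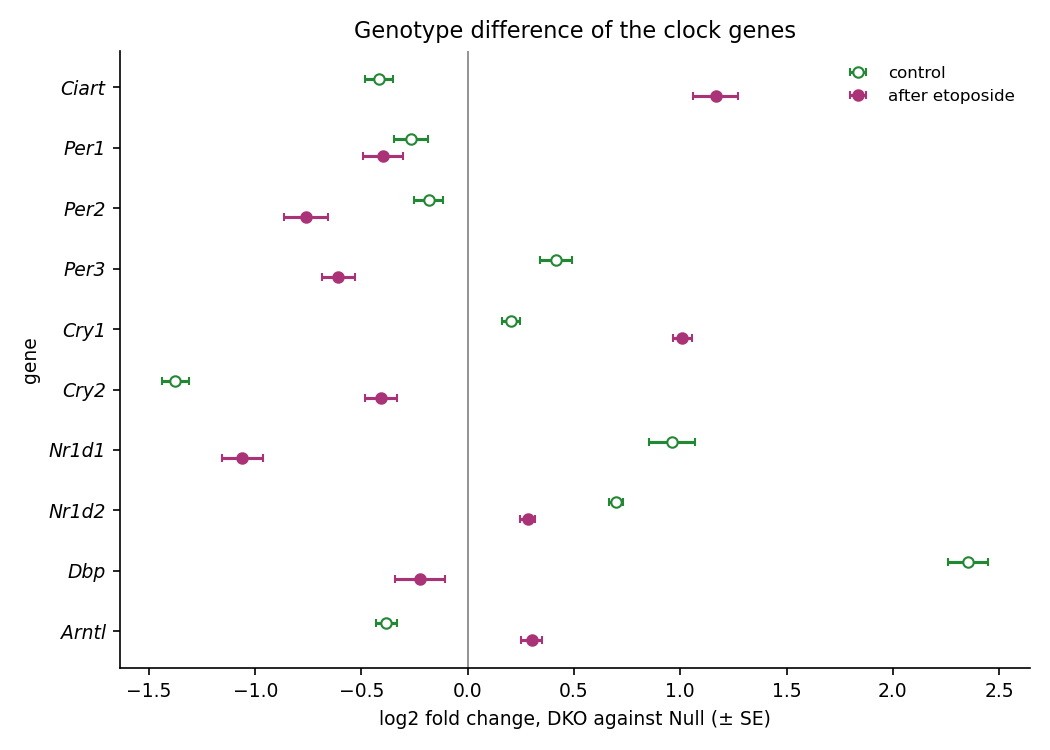
Log2 difference of DKO against Null MEFs for each clock gene, in controls and after etoposide, with bars of 1 standard error from the fit to 12 libraries. Dbp lies at 2.35 in controls and -0.22 after etoposide, and Ciart at -0.42 and 1.17.

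The etoposide responses of DKO and Null MEFs differed for 8 of the 9 clock genes other than Ciart, 3 with a higher log2 fold change in DKO MEFs and 5 with a lower one, where 54% of all genes were called, 29.6% higher and 24.4% lower. The median difference of the 9 was -0.42, beside 0.05 over all genes. With library size alone the clock gene counts were again 3 and 5, while the all-gene median moved by 0.10 and the split of all genes from 4507 higher and 3719 lower to 5734 and 3055. With RLE scaling the clock gene counts were also 3 and 5. The split of all genes then turned, to 3797 higher and 4192 lower at a median of -0.02. The response was lower in DKO MEFs for Dbp (difference -2.58, SE 0.15, edgeR adjusted p = 2.51e-10) and Nr1d1 (-2.02, SE 0.15, edgeR adjusted p = 2.93e-09), and Nr1d1 lay above its controls in Null MEFs and below them in DKO MEFs. It was lower by less for Per3 (-1.02, SE 0.11, edgeR adjusted p = 4.25e-07), Per2 (-0.58, SE 0.13, edgeR adjusted p = 0.000826) and Nr1d2 (-0.42, SE 0.05, edgeR adjusted p = 9.38e-07). It was higher, which here means a smaller fall, for Cry2 (0.97, SE 0.10, edgeR adjusted p = 2.93e-07), Cry1 (0.81, SE 0.06, edgeR adjusted p = 6.08e-09) and Arntl (0.68, SE 0.07, edgeR adjusted p = 2.03e-07). Per1 was not called (-0.13, SE 0.13, edgeR adjusted p = 0.41). The difference for Ciart was 1.59 (SE 0.12), given without a test because it contains the value that chose the gene.

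The clock genes also differed in how far they ranged. From the lowest to the highest group mean, Ciart spanned 12.6-fold, Per2 9.34-fold, Dbp 5.17-fold and Cry2 4.16-fold, and Per1 (3.16-fold), Nr1d1 (2.91-fold), Cry1 (2.20-fold), Nr1d2 (2.17-fold), Arntl (1.87-fold) and Per3 (1.72-fold) less. The span of Ciart is its fall with etoposide in Null MEFs, the value that chose the gene. Nothing is therefore read from its first place. Per1 and Cry2 shared an order of groups, DKO etoposide, Null etoposide, DKO control and Null control from lowest to highest, with no overlap between neighbours. Per2 had that order with its control groups overlapping. Nr1d1 was lowest in Null controls and highest in Null MEFs after etoposide. Arntl was highest in Null controls and lowest in Null MEFs after etoposide, with the same order of groups as Ciart and no overlap. Between these ends, both Nr1d1 and Arntl stood lower in DKO MEFs after etoposide than in DKO controls. Cry1 in Null controls overlapped Cry1 in DKO MEFs after etoposide. Likeness of profile was measured as the root mean square difference between log2 CPM over the 12 libraries, each profile centred on its own mean. Of the 45 pairs of clock genes, Cry1 and Nr1d2 were closest (0.316) and Ciart and Nr1d1 farthest apart (1.93). The clock gene nearest to Ciart was Per2, at 0.686.

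Some genes outside the clock lay nearer. They were the nearest of 11998 genes searched, against 9 other clock genes, so nothing is read from this. Among genes averaging at least 1 CPM, the 5 most like Ciart by the same measure were Ccser1 (0.186), Samd4 (0.321), Hivep3 (0.340), Runx2 (0.390) and Il1rn (0.423). Ccser1 was 16.4 ± 0.671 CPM in Null controls, 14.6 ± 0.472 in DKO controls, 1.69 ± 0.126 in Null MEFs after etoposide and 3.19 ± 0.660 in DKO MEFs after etoposide (SD, n = 3). Runx2, a transcription factor of bone formation, was 60.8 ± 4.51, 73.2 ± 0.953, 9.04 ± 0.246 and 12.7 ± 1.24 CPM in the same groups. Being selected on their values, these genes were given no test.

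Further clock components were read from 5 lists, 60 genes in all, of which 59 were in the table and tested. Their counts stand beside those over all genes, of which 42.3% were higher and 37.2% lower with etoposide in Null MEFs and 43.7% and 31.5% in DKO MEFs. In DKO against Null MEFs 33.3% and 33.4% of all genes were higher and lower in controls and 37.5% and 36.6% after etoposide, and the responses of 29.6% and 24.4% were higher and lower in DKO MEFs. The 11 other clock transcription factors include CLOCK itself, the ROR activators that compete with REV-ERBs, and the repressors Bhlhe40, Bhlhe41 and Nfil3. In DKO controls 8 of the 11 were higher and 1 lower than in Null controls, with a median log2 difference of 1.01 beside -0.02 over all genes, and 6 and 1 with library size alone or 7 and 0 with the stricter filter. Rora was 2.30 ± 0.205 CPM in Null and 28.3 ± 0.465 CPM in DKO controls (SD, n = 3; log2 difference 3.62, SE 0.10, edgeR adjusted p = 2.87e-15). Bhlhe41, which shares 19.0% of its exon length with a gene on the other strand, was 2.25 ± 0.494 and 14.4 ± 0.255 CPM (2.69, SE 0.11, edgeR adjusted p = 2.75e-13). Etoposide raised 5 and lowered 4 of the 11 in Null MEFs (median 0.03, beside 0.07 over all genes), with 3 raised under the stricter filter. It raised 2 and lowered 6 in DKO MEFs (median -0.55, beside 0.14), but 4 and 6 with library size alone, and 1 was raised without a filter, with the stricter filter or without DKO control replicate 1, DKO control replicate 2 or DKO etoposide replicate 2. The E-box repressor gene Bhlhe40 fell in both, from 138 ± 7.30 to 30.2 ± 1.17 CPM in Null MEFs (-2.20, SE 0.06, edgeR adjusted p = 3.38e-16) and from 279 ± 6.36 to 25.5 ± 2.27 CPM in DKO MEFs (-3.46, SE 0.06, edgeR adjusted p = 2.74e-18). Nfil3, the repressor that opposes DBP at D-boxes, fell in both as well (-1.94, SE 0.04, edgeR adjusted p = 2.54e-17, and -2.50, SE 0.04, edgeR adjusted p = 2.24e-18). Arntl2, a paralog of Arntl, rose from 4.91 ± 0.716 to 23.2 ± 0.344 CPM in Null MEFs (2.24, SE 0.09, edgeR adjusted p = 2.33e-13), while in DKO MEFs it was 9.89 ± 1.16 and 8.73 ± 0.466 CPM and was not called. Tef, a relative of Dbp, rose in Null MEFs (1.41, SE 0.04, edgeR adjusted p = 4.64e-16). It rose by less in DKO MEFs (0.12, SE 0.04, edgeR adjusted p = 0.00719). The response of Tef was lower in DKO than in Null MEFs (difference -1.29, SE 0.05, edgeR adjusted p = 1.41e-12). After etoposide 4 of the 11 were higher and 6 lower in DKO than in Null MEFs, and the responses of 2 were higher and of 7 lower in DKO MEFs. Only 1 response was higher with RLE scaling, DESeq2, the stricter filter or without Null control replicate 1, DKO control replicate 2 or replicate 2 of either etoposide group.

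Enzymes that set the stability of clock proteins and cofactors of the clock make up a further pair of lists. Of 16 kinases, ubiquitin ligases and deubiquitinases, etoposide raised 2 and lowered 12 in Null MEFs (median -0.37, beside 0.07 over all genes), and raised 4 and lowered 11 with library size alone. In DKO MEFs it raised 5 and lowered 10 (median -0.27, beside 0.14), and 6 and 6 with library size alone, at a median of 0.01. Only 3 were raised in DKO MEFs without a filter or when replicate 1 or 2 of the DKO controls or of the DKO etoposide libraries was left out. Siah2, a ligase that acts on REV-ERBα, went from 122.5 ± 4.15 to 25.8 ± 2.60 CPM in Null MEFs (SD, n = 3; log2 fold change -2.25, SE 0.06, edgeR adjusted p = 4.06e-16) and from 113 ± 5.12 to 48.1 ± 0.286 CPM in DKO MEFs (-1.23, SE 0.05, edgeR adjusted p = 1.15e-12). Fbxw11, which acts on PER proteins with Btrc, fell in Null (-1.52, SE 0.04, edgeR adjusted p = 2.1e-16) and DKO MEFs (-1.12, SE 0.04, edgeR adjusted p = 1.36e-14). In controls 4 of the 16 were higher and 9 lower in DKO than in Null MEFs (1 and 11 with library size alone), among them the PER kinase gene Csnk1e (-0.45, SE 0.03, edgeR adjusted p = 2.11e-09). After etoposide 9 were higher and 5 lower, and the etoposide responses of 9 were higher and of 2 lower in DKO MEFs (10 and 1 with library size alone). Of 13 cofactors, 1 rose and 10 fell with etoposide in Null MEFs, and 4 rose and 5 fell in DKO MEFs (4 and 8, and 7 and 3, with library size alone). In Null MEFs 2 rose with DESeq2 or RLE scaling and 3 with the stricter filter. Their medians were -0.32 and -0.08, beside 0.07 and 0.14 over all genes. The coactivator gene Crebbp went from 134 ± 9.99 to 51.6 ± 2.80 CPM in Null MEFs (-1.38, SE 0.07, edgeR adjusted p = 1.96e-12) and from 145.5 ± 1.30 to 91.3 ± 9.46 CPM in DKO MEFs (-0.67, SE 0.06, edgeR adjusted p = 4.08e-08). Ncor1, the corepressor of REV-ERBs, fell in Null MEFs (-1.15, SE 0.04, edgeR adjusted p = 5.07e-15) and in DKO MEFs (-0.82, SE 0.04, edgeR adjusted p = 6.99e-13). In controls 5 cofactors were higher and 4 lower in DKO MEFs (1 and 5 with library size alone), and the responses of 9 were higher and of 2 lower (9 and 0 with library size alone). After etoposide 10 cofactors were higher and 1 lower in DKO MEFs (median 0.23, beside -0.004 over all genes), where 37.5% of all genes were higher and 36.6% lower. With RLE scaling, DESeq2 or the stricter filter 6 were higher and 2 lower, and 2 were lower without DKO control replicate 1 or 2.

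Genes driven by the clock and genes that reset it moved in both directions. Of the 9 rhythmic output genes tested, 2 were called higher and 7 lower with etoposide in Null MEFs (median -0.63). The count of 2 includes Lonrf3, named after its values were seen, at a mean of 0.886 CPM and just under the threshold (0.40, SE 0.18, edgeR adjusted p = 0.0481). The count was 1 in most alternatives, namely with DESeq2, limma-trend, no filter, the stricter filter, the replicate block and the legacy fit, and without any Null control replicate, Null etoposide replicate 1 or 2, DKO control replicate 1 or 3 or DKO etoposide replicate 3, each left out in turn. In DKO MEFs 1 rose and 7 fell (median -0.90), or 3 and 5 with library size alone, and 2 were higher with DESeq2, limma-trend, the legacy fit or without DKO etoposide replicate 2. Klf9 went from 89.3 ± 2.04 to 21.0 ± 0.816 CPM in Null MEFs (SD, n = 3; log2 fold change -2.09, SE 0.04, edgeR adjusted p = 1.23e-17) and from 117 ± 1.80 to 28.8 ± 0.677 CPM in DKO MEFs (-2.02, SE 0.04, edgeR adjusted p = 1.76e-17). Klf9 encodes a factor induced by glucocorticoids as well as by the clock, and so does Tsc22d3, which fell in Null (-1.59, SE 0.05, edgeR adjusted p = 2.18e-15) and DKO MEFs (-1.47, SE 0.04, edgeR adjusted p = 5.92e-15). Cirbp, a cold-induced RNA-binding protein gene, rose in Null MEFs (1.15, SE 0.06, edgeR adjusted p = 1.72e-11). It rose by less in DKO MEFs (0.53, SE 0.06, edgeR adjusted p = 7.14e-07). In controls 6 of the 9 were higher and 3 lower in DKO MEFs, after etoposide 5 and 3 (4 and 4 with RLE scaling), and the responses of 2 were higher and of 4 lower (4 and 4 with library size alone). Of the 10 genes of resetting inputs, 3 rose and 5 fell with etoposide in Null MEFs and 3 rose and 6 fell in DKO MEFs (4 and 4 with library size alone in DKO MEFs). Dusp1, an immediate early phosphatase gene, rose from 20.9 ± 0.828 to 161 ± 12.2 CPM in Null MEFs (2.94, SE 0.05, edgeR adjusted p = 7.83e-18) and from 17.4 ± 0.714 to 52.0 ± 0.143 CPM in DKO MEFs (1.58, SE 0.05, edgeR adjusted p = 3.78e-14). Nr4a1, an immediate early nuclear receptor gene, was 28.1 ± 2.12 and 29.4 ± 2.79 CPM in Null MEFs and 75.3 ± 8.49 and 11.9 ± 3.93 CPM in DKO MEFs, and its responses differed (-2.77, SE 0.19, edgeR adjusted p = 1.99e-09). In controls 3 of the 10 inputs were higher and 4 lower in DKO MEFs, after etoposide 3 and 7, and the responses of 1 were higher and of 6 lower (2 and 6 with library size alone, and 2 higher without DKO control replicate 3). Over all 59 genes, etoposide raised 13 and lowered 38 in Null MEFs and raised 15 and lowered 34 in DKO MEFs, the latter becoming 24 and 24 with library size alone. After etoposide 31 of the 59 were higher and 22 lower in DKO than in Null MEFs, and 24 and 24 with RLE scaling. Library size alone moved the all-gene median up by 0.17 in Null MEFs and the all-gene split from 6435 higher and 5656 lower to 7806 and 4396.

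**Figure D4:**
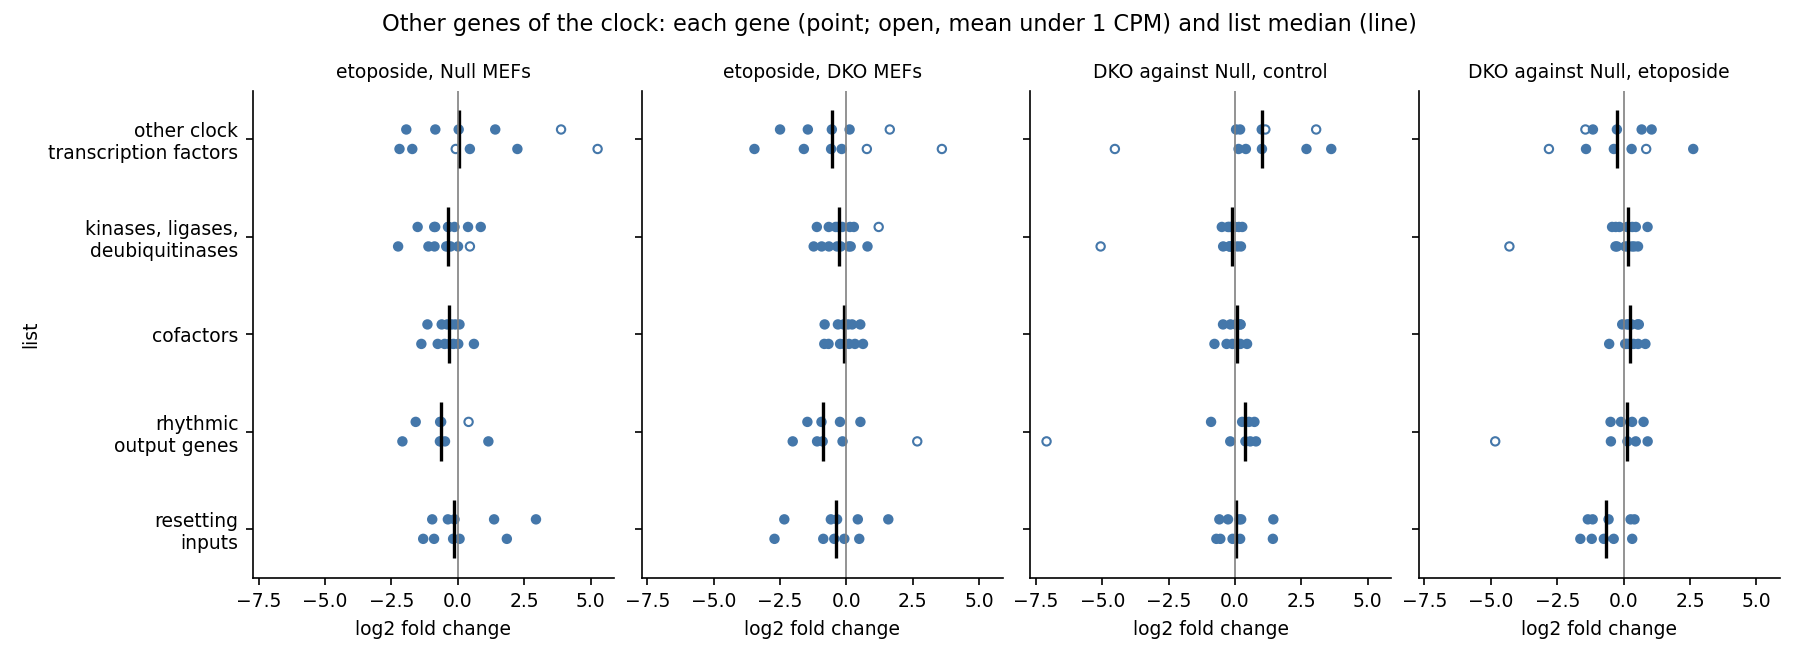
Log2 fold change of each gene in 5 lists of further clock components, in 4 comparisons, with 1 point for each gene (open where its mean is under 1 CPM) and a line at the list median. The median of the other clock transcription factors lies at 1.01 in DKO against Null controls and at -0.55 with etoposide in DKO MEFs.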

How the data were processed

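RNA was sequenced from 12 libraries of Null and TFEB/TFE3 DKO MEFs, 3 for each of 4 groups, and grouped by the labels. The authors made the deposited counts per gene from stranded, ribosomal RNA-depleted libraries aligned with HISAT2. The submitters' processing notes name mm10 and featureCounts, whereas the study's methods name HTSeq with GENCODE annotation. The 5 summary lines of the table were left out. Of all reads, 20.2 to 27.3% had no feature, 15.9 to 20.5% were not unique and 0.428 to 0.513% were ambiguous.

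From the counts, edgeR 4.0.16 (R 4.3.3) was run on all 12 libraries with filterByExpr, TMM factors (0.884 to 1.09), a group term, and the quasi-likelihood fit and test, with Benjamini-Hochberg adjustment over 15220 genes and a threshold of 0.05. The steps were tested on simulated data. Ciart was given no test where a comparison uses the Null libraries, which chose it. The members and lists were chosen with earlier results of these data known. Named from each list were at most the 5 called genes with the largest absolute log2 fold change among those with a mean of at least 1 CPM. Lonrf3, below that mean, was added after its values were seen. The 5 genes most like Ciart were taken by profile. Alternatives were DESeq2 1.42.0, limma-trend (limma 3.58.1), RLE and library-size scaling, no filter, a stricter filter (mean of at least 1 CPM), a replicate block, leaving out each library, and, added after seeing the data, edgeR's legacy fit. Counts of replicate pairs differed by more than counting error (chi-square of 11.1 to 23.0 for each degree of freedom). The smallest exact two-sided permutation p for 3 against 3 libraries is 0.1, so no such test was used. Exon lengths and overlaps came from GENCODE M21 and promoter windows from RefSeq.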

Additional observations from a re-analysis of the deposited data

Results flagged for a closer look

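The etoposide response (log2 fold change against control) differed between DKO and Null MEFs for 8 clock genes, by the interaction term of the same edgeR quasi-likelihood test with Benjamini-Hochberg adjustment. As DKO minus Null, the difference was -2.58 for Dbp (edgeR adjusted p = 2.51e-10), -2.02 for Nr1d1 (2.93e-09), -1.02 for Per3 (4.25e-07), -0.58 for Per2 (0.000826) and -0.42 for Nr1d2 (9.38e-07). It was 0.97 for Cry2 (edgeR adjusted p = 2.93e-07), 0.81 for Cry1 (6.08e-09) and 0.68 for Arntl (2.03e-07). These differences share the Null libraries that chose Ciart, and 54% of all genes were called in the same term.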

How the results depend on the processing

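Each tested log2 value of a clock gene, 37 in all, was recomputed under the alternatives. Of 768 values 755 kept direction and call, 7 lost the call, 4 gained it and 2 reversed, and 31 of the 37 results kept direction and call throughout. With library size alone, 1 clock gene was higher with etoposide in DKO MEFs, Cry1 having reversed to 0.14 and Arntl to 0.0541, while the all-gene median moved up by 0.27. Cry1 was not called there under the stricter filter (edgeR adjusted p = 0.0518). Per2 in DKO against Null controls ranged from -0.31 to -0.13 (adjusted p 0.000894 to 0.146 over the edgeR, DESeq2 and limma alternatives), and Dbp after etoposide from -0.30 to -0.10 (0.0293 to 0.445). The cause was not tested. The number of all genes called in either direction stayed within 1.5 times of that reported in all 100 values recomputed. By direction, those lower with etoposide in DKO MEFs went from 4790 to 3004 with library size alone, and counts in the lists of further clock components moved too.

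Of 100 values for each list count, the number higher moved by over 1.5 times in 20 for rhythmic outputs, 14 for other transcription factors, 9 for cofactors, 7 for kinases, ligases and deubiquitinases and 2 for inputs. The number lower moved so in 7 for cofactors, 2 for kinases, ligases and deubiquitinases and 1 for other transcription factors. With library size alone the 59 genes together went from 15 to 24 higher with etoposide in DKO MEFs and from 26 to 17 in DKO against Null controls. Cofactors higher in DKO MEFs after etoposide went from 10 to 6 with DESeq2, RLE scaling or the stricter filter, and those lower from 1 to 2, also without DKO control replicate 1 or 2. In Null MEFs etoposide raised 2 cofactors with DESeq2 or RLE scaling, 3 with the stricter filter and 4 with library size alone, in place of 1. Rhythmic outputs higher with etoposide in Null MEFs went from 2 to 1 in most alternatives, the replicate block among them, and those higher in DKO MEFs from 1 to 2 with DESeq2, limma-trend, the legacy fit or without DKO etoposide replicate 2. Other transcription factors with a higher response in DKO MEFs went from 2 to 1 with DESeq2, RLE scaling, the stricter filter or without Null control replicate 1, DKO control replicate 2 or replicate 2 of either etoposide group. Those lower in DKO controls went from 1 to 0 with the stricter filter. Inputs with a higher response went from 1 to 2 without DKO control replicate 3.

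No clear pairing of the libraries by replicate number was seen. Deviations of same-numbered libraries correlated at -0.03 to 0.04 (median 0.01, 0 of 18 pairs over 0.1). Those of libraries with other numbers correlated at -0.05 to 0.05 (median -0.007, 0 of 36 pairs over 0.1). Of 12 libraries, 7 correlated best with their own number, and no chance level was worked out for this count. With the replicate block, 12111 genes were called with etoposide in Null MEFs and 11416 in DKO MEFs, and no call of a clock gene changed.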
